A study of Mus musculus with 22 samples.

Results

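Kidneys of mice lacking Clock were compared with wild-type (WT) kidneys in the early subjective night, on 7 of the 22 whole-transcript arrays of the series. The 7 arrays were chosen by their titles, which name the circadian times ZT12 and ZT16, counted in hours from ZT0, when the lights had come on before the darkness began, so that ZT12 is the onset of the subjective night. The WT group held 2 pools at ZT12 and 2 at ZT16, and the Clock knockout (KO) group, labelled clock(-/-), held 2 pools at ZT12 and 1 at ZT16. Each array carried RNA from 2 or 3 mice, combined before 100 ng was labelled. All mice had been adapted to 12 h of light and 12 h of dark for 2 weeks and then held in darkness for 30 h, so both groups were free of light cues at sacrifice. KO mice came from a colony founded with heterozygous pairs. The labels give neither sex nor age, and they call the tissue the left kidney in one field and the whole kidney in another. Pools are not said to differ in litter or day, so the p-values below reflect how much the pools vary, which may in part be technical. The question is how loss of Clock changed kidney transcripts at the start of the active phase of a nocturnal animal.

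CLOCK pairs with ARNTL (also called BMAL1) and the pair binds E-box elements in DNA to switch on the Period and Cryptochrome genes, Ciart, the Rev-erb receptors Nr1d1 and Nr1d2, and the bZIP factors Dbp, Tef and Hlf. The Period and Cryptochrome proteins then block the pair, Rev-erb proteins repress Arntl through ROR elements, and the bZIP factors pass the rhythm on through D-box elements. NPAS2 is a paralog that can take the place of CLOCK in some tissues. In the kidney the clock is known to act on the transport of salt, water and organic solutes and on metabolism.

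For some of the genes described below, promoters that hold an element the clock proteins are known to bind are shown. They come from RefSeq on build GRCm38.p6, as the 250 bases before an annotated gene start, written 5′ to 3′ on the gene's strand. Capitals mark CACGTG, the E-box, in Ciart, Tef, Tspan4 and Slc16a1, and TTANGTAA, the D-box, in Per3. For Arntl a stretch of 27 bases is shown, in which capitals mark TAGGTCA, the core of a ROR element, 31 bases after the start of its second annotated promoter.
Ciart, chr3:95882229-95882478 (minus strand): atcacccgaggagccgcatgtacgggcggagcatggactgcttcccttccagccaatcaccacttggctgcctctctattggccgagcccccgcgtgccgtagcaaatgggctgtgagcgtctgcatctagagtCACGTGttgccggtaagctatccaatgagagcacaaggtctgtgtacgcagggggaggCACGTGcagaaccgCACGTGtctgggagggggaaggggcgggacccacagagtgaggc
Tef, chr15:81811164-81811413 (plus strand): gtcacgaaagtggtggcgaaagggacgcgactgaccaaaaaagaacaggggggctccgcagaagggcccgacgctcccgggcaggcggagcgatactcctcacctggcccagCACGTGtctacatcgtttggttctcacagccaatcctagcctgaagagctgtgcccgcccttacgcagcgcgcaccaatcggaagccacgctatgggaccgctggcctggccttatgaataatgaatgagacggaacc
Tspan4, chr7:141476130-141476379 (plus strand): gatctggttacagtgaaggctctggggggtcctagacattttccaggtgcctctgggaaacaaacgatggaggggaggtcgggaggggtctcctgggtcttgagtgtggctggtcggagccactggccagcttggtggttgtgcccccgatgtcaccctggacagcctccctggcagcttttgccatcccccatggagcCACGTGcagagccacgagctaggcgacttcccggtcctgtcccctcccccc
Per3, chr4:151044666-151044915 (minus strand): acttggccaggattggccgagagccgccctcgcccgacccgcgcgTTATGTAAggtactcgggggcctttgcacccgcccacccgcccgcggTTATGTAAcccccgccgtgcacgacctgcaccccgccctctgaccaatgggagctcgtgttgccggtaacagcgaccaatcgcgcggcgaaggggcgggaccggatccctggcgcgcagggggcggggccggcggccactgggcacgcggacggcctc
Slc16a1, chr3:104638414-104638663 (plus strand): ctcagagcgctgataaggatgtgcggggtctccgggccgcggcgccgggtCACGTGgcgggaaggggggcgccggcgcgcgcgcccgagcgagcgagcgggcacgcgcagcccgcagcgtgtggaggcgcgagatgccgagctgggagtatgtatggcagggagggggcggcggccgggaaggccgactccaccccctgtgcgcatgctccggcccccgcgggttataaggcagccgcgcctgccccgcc
Arntl, chr7:113207531-113207557 (plus strand): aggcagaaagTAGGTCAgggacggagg

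Ciart had 3 E-boxes, at 116, 58 and 44 bases before the start. The others had 1 E-box each, at 138 bases in the Tef promoter shown, 51 in the Tspan4 promoter shown and 200 in Slc16a1, and a further annotated Tef promoter had 1 at 127 bases. Per1, Cry1 and Bhlhe41, not shown, had 1 each. CACGTG was not in the windows of Nr1d1, Nr1d2, Per3, Cry2, Dbp and Hlf, in the other Tspan4 promoter or in a further one of Per1. The D-boxes of Per3 began 205 and 158 bases before the start. The values of these genes are given below, and the share of promoters with each motif follows them.

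Over all 35556 probe sets, array medians of the 7 arrays lay between 5.91 and 6.01 log2, and the arrays correlated at 0.984 to 0.993. The KO ZT12 array of pool 2 stood apart from the other KO arrays. On the first principal component, which held 34.2% of the variance, the genotypes overlapped, with WT arrays from -13.1 to 19.7 and KO arrays from -9.5 to -1.80. On the second principal component, which held 29.7% of the variance, it lay at -0.19, against -8.84 for the other KO ZT12 array, -16.1 for the KO ZT16 array, 12.3 and 13.1 for the WT ZT12 arrays, and -2.02 and 1.70 for the WT ZT16 arrays, so on this component it lay among the WT ZT16 arrays. Without that array 75 genes passed the test. Among them, its value lay a median of 61.4% of the way from the WT ZT12 mean to KO pool 1 at the same time, 77.7% for the 40 higher genes and 44.1% for the 35 lower ones. Those genes were chosen with KO pool 1 in the fit, so the shares describe the arrays and are no test. Results are given with all 7 arrays, and a call that changes without this array is named as such for the genes described.

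Clock itself gave 8.63 and 8.47 in the WT ZT12 arrays, 8.87 and 8.93 in the WT ZT16 arrays, 8.90 and 8.89 in the KO ZT12 arrays and 9.10 in the KO ZT16 array, on the log2 scale of the deposited values. The KO minus WT difference was 0.29 ± 0.08 (SE of the fit, 3 KO and 4 WT arrays, adjusted p = 0.193). The KO and WT ranges overlap. Since the deleted part of the gene is not named in the labels and the probes of the set spread over the whole transcript, the genotype labels are not checked by this value.

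In early night 85 of 13967 genes differed between the genotypes, 0.609% of those tested. Of these, 59 were higher in KO (0.422%) and 26 were lower (0.186%). Calls rest on limma with genotype and time as terms, at an adjusted p (Benjamini-Hochberg) under 0.05. At an unadjusted p under 0.05 there were 1394 genes (9.98%). The size of the called differences had a median of 0.76 log2 and a smallest value of 0.41, and 18 reached 1 log2, 13 of them higher and 5 lower. All 85 had the same sign at ZT12 and at ZT16 when the times were read apart. These 85 were chosen by the joint fit of the same arrays, so their agreement between times is no test. In 68 of them the 3 KO values did not overlap the 4 WT values, against 740 genes higher without overlap (5.3%) and 406 lower without overlap (2.91%) among all genes. The median difference over all genes was 0.00 log2. When all 35556 probe sets of the table were tested together, dim and unnamed ones included, limma called 0, with 2228 at an unadjusted p under 0.05 and a lowest adjusted p of 0.0760. Without the KO ZT12 array of pool 2, 40 genes were higher and 35 lower, and 59 of the 75 were among the 85. The number called was 24 without KO ZT12 pool 1, 17 without the lone KO ZT16 pool, 51 without WT ZT12 pool 2, 39 without WT ZT16 pool 1, 45 without WT ZT16 pool 2 and 104 without WT ZT12 pool 1.

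**Figure D1:**
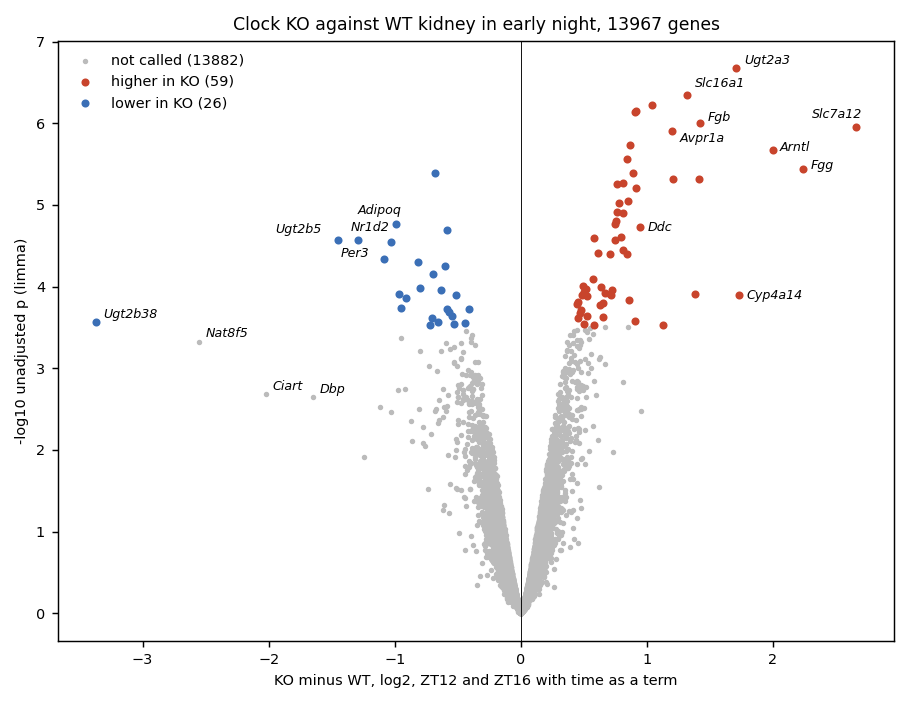
Each point is 1 of 13967 genes, with the KO minus WT difference in log2 on the x axis and -log10 of the unadjusted limma p on the y axis. The 59 genes called higher in KO are red and the 26 called lower are blue. Slc7a12 lies farthest to the right at 2.66 and Ugt2b38 farthest to the left at -3.37, and Ciart, Dbp and Nat8f5 are among the large differences that were not called.

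Among the activators of the clock, Arntl rose. Its WT values were 5.69 and 5.58 at ZT12 and 7.37 and 7.28 at ZT16, and its KO values were 8.20 and 7.91 at ZT12 and 8.69 at ZT16. Every KO array was above every WT array, and the WT level climbed between the times while the KO level was already high at ZT12. The difference was 2.00 ± 0.19 log2, 3.99-fold (adjusted p = 0.00293), with 2.42 at ZT12 and 1.37 at ZT16, and it was called in all 7 leave-one-out fits. Of the other activators measured, Rora, which drives Arntl through ROR elements, differed by -0.23 ± 0.11 (adjusted p = 0.560) and Arntl2, a paralog of Arntl, by -0.09 ± 0.10 (adjusted p = 0.822). Of the 4 activators measured, 1 rose, 0 fell and 3 did not pass.

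Of 10 repressors measured, 2 fell, 0 rose and 8 were not called, and 9 of the 10 had a negative difference, with a median of -0.51 log2. Nr1d2, the Rev-erb beta receptor, read 9.92 and 9.97 in WT at ZT12, 8.94 and 9.18 in WT at ZT16, 8.34 and 9.14 in KO at ZT12 and 7.64 in KO at ZT16. The KO arrays were below the WT arrays at each time, while over both times the ranges overlap, and WT declined from ZT12 to ZT16. Its difference was -1.29 ± 0.17 (adjusted p = 0.0115). Per3, a Period family member, read 7.62 and 7.53 in WT at ZT12, 6.86 and 7.06 in WT at ZT16, 6.30 and 6.95 in KO at ZT12 and 5.68 in KO at ZT16. It fell by 1.08 ± 0.15 (adjusted p = 0.0163), with the same order at each time. Both calls were lost without WT ZT16 pool 1, KO ZT12 pool 1 or the KO ZT16 pool, with adjusted p up to 0.164 for Nr1d2 and 0.196 for Per3.

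Ciart, a repressor of the CLOCK and ARNTL pair, had the largest difference of the clock genes without passing the test. Its WT arrays gave 9.33 and 8.45 at ZT12 and 5.85 and 6.37 at ZT16, and its KO arrays gave 5.29 and 7.38 at ZT12 and 4.88 at ZT16. KO pool 1 at ZT12 was already below both WT arrays of ZT16, while KO pool 2 lay more than 2 log2 above it. The difference was -2.02 ± 0.48 (adjusted p = 0.131), and -2.41 without KO ZT12 pool 2 (adjusted p = 0.136). Nr1d1, the Rev-erb alpha receptor, differed by -1.28 at ZT12 and 0.08 at ZT16, for a joint value of -0.74 ± 0.29 (adjusted p = 0.424). In WT it went from 9.04 and 9.15 at ZT12 to 7.25 and 7.55 at ZT16, and in KO it read 7.37, 8.27 and 7.47.

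The remaining repressors did not pass the test. Per1 differed by -0.47 ± 0.12 (adjusted p = 0.146), Bhlhe41 by -0.51 ± 0.20, Cry2 by -0.12 ± 0.11 and Bhlhe40 by -0.10 ± 0.12. Bhlhe40 and Bhlhe41 encode the DEC repressors, which compete for E-boxes. Per2 gave 8.31 and 8.23 in WT at ZT12, 8.31 and 8.17 in WT at ZT16, 7.60 and 8.23 in KO at ZT12 and 7.49 in KO at ZT16. In Per2 the KO array of pool 2 was at the WT level and the other KO arrays were lower, with a difference of -0.51 ± 0.15 (adjusted p = 0.227), and -0.71 without that array (adjusted p = 0.0214). Cry1, the late-acting Cryptochrome, was the 1 repressor with a positive difference, 0.46 ± 0.09 (adjusted p = 0.0685).

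Among the bZIP factors, Tef fell by 0.71 ± 0.12 (adjusted p = 0.0450). Tef read 9.96 and 9.94 in WT at ZT12, 9.37 and 9.40 in WT at ZT16, 9.01 and 9.57 in KO at ZT12 and 8.60 in KO at ZT16. The call held in 1 of the 7 leave-one-out fits, that without KO ZT12 pool 2, where the adjusted p was 0.0102. Dbp, a D-box activator, gave 10.50 and 10.60 in WT at ZT12, 8.20 and 8.36 in WT at ZT16, 7.51 and 9.39 in KO at ZT12 and 7.32 in KO at ZT16. Its difference of -1.65 ± 0.39 did not pass (adjusted p = 0.135), and it passed without KO ZT12 pool 1 (-1.06, adjusted p = 0.0205). Nfil3, which represses at D-boxes, differed by 0.95 ± 0.24 (adjusted p = 0.153) and Hlf by -0.22 ± 0.11 (adjusted p = 0.572). In all, 4 members were measured, 0 rose, 1 fell and 3 were not called.

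**Figure D2:**
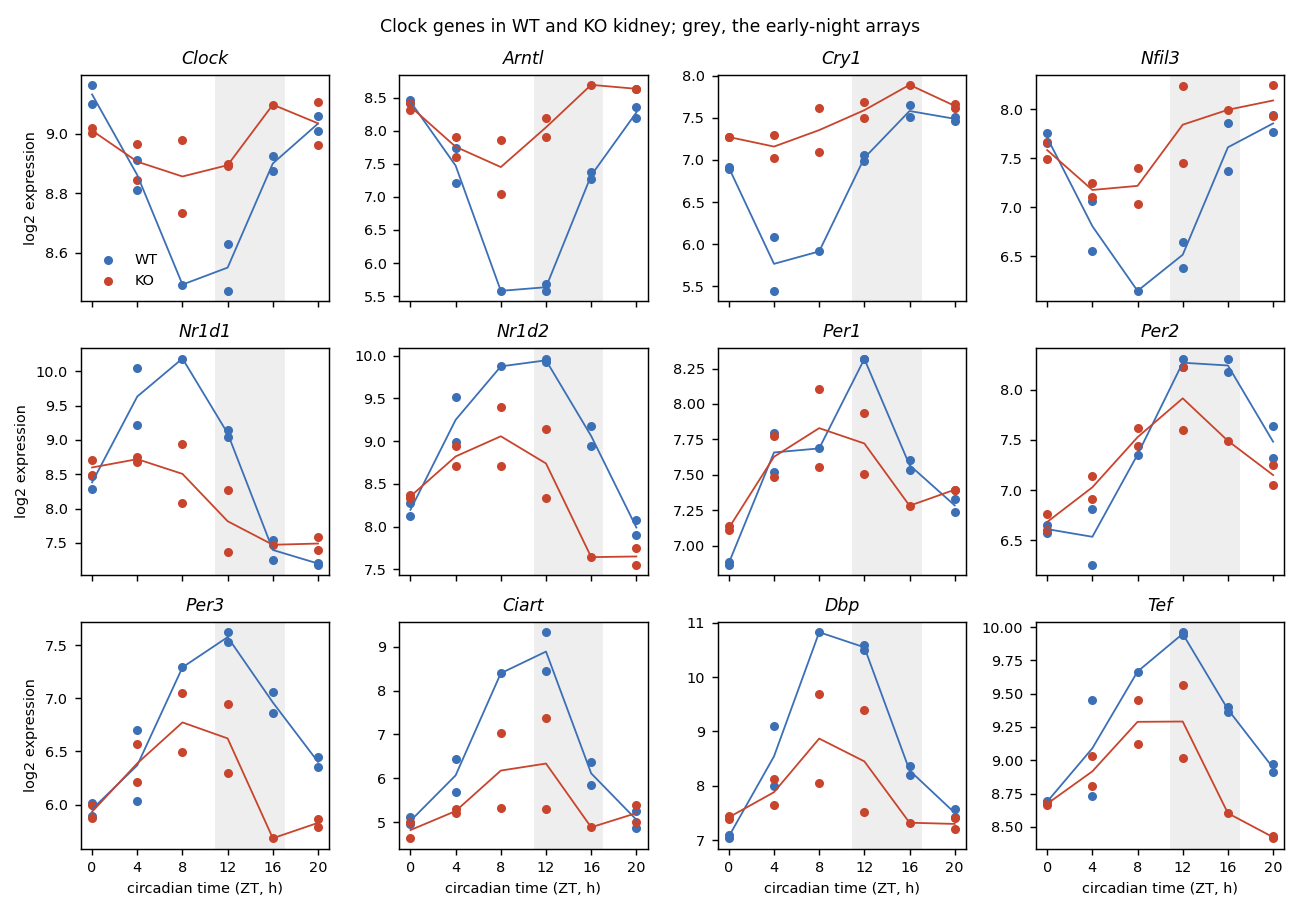
Log2 expression of 12 clock genes in every array against circadian time in hours, WT in blue and KO in red, with lines through the means at each time and the early-night times in grey. In Arntl the KO points at ZT12 and ZT16 (7.91 to 8.69) lie above all WT points there (5.58 to 7.37), and in Per3, Nr1d2, Dbp and Ciart the higher of the KO points at ZT12 is pool 2.

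Genes listed as clock outputs were called in both directions. Of 12 measured, 3 rose, 1 fell and 8 were not called. Members of this list were chosen with earlier results of these data known, so these counts describe them and are no test. Ddc, the aromatic amino acid decarboxylase that makes dopamine in the proximal tubule, was flat in WT at 8.92, 8.88, 8.99 and 9.02, and read 9.82, 9.49 and 10.23 in KO. It rose by 0.94 ± 0.12 (adjusted p = 0.00970), with no overlap. Ypel2 rose by 0.81 ± 0.10 (adjusted p = 0.00767) and Dtx4, a ubiquitin ligase of the Deltex family, by 0.81 ± 0.11 (adjusted p = 0.0142). Tspan4, a tetraspanin, read 9.55, 9.61, 9.14 and 9.34 in WT and 8.70, 9.07 and 8.54 in KO, and fell by 0.70 ± 0.10 (adjusted p = 0.0233). Rhobtb1 gave 0.85 ± 0.15 and missed the threshold narrowly (adjusted p = 0.0504). Usp2, a deubiquitinase with a clock-driven promoter, gave -0.58 ± 0.14 (adjusted p = 0.132), and passed in the fit without KO ZT12 pool 2 (-0.75, adjusted p = 0.0224). So did Wee1, a cell cycle kinase (-0.78, adjusted p = 0.0224, against -0.59 and 0.154 with all 7 arrays), so that 3 rose and 3 fell without that array. The calls of Ddc and Dtx4 were lost without KO ZT12 pool 1 or the KO ZT16 pool, that of Dtx4 also without WT ZT16 pool 1, and that of Ypel2 without KO ZT12 pool 1 (adjusted p = 0.0569). That of Tspan4 held without WT ZT12 pool 1 or KO ZT12 pool 2 and was lost in the other 5 leave-one-out fits.

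Promoter windows of 300 bases, from 250 before to 50 after the start, were in the RefSeq table for 11052 of the genes tested, for 44 of those called higher and for 23 of those called lower. Motifs were read on both strands. An E-box was in 11.3% of all promoters, in 2 of the 44 higher genes (4.55%), Pigr and Slc16a1, and in 5 of the 23 lower genes (21.7%), Coq10b, Slc25a33, Slc51a, Tef and Tspan4. A D-box was in 1.82% of all promoters, in 0 of the higher genes and in 2 of the lower genes (8.7%), Coq10b and Per3. The ROR core TAGGTCA was in 2.47% of all promoters, in 4 of the higher genes (9.09%), Arntl, Bhmt, Fabp7 and Tfpi2, and in 1 of the lower genes (4.35%), Slc51a. A glucocorticoid response element was in 0.38% of all promoters, in 1 of the higher genes, Folh1, and in 0 of the lower genes. No motif's letters contain those of another, these shares were not tested, and Coq10b, Bhmt, Tfpi2 and Slc25a33 were not called without KO ZT12 pool 2. Genes named here for a motif were chosen by their sequence after the calls were made. The Ciart promoter printed above belongs to a gene that was not called.

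The largest rises outside the clock were in an amino acid transporter, fibrinogen chains and enzymes of the proximal tubule. Slc7a12, a transporter of the SLC7 family, read 7.29 and 7.42 in WT at ZT12, 8.95 and 8.18 in WT at ZT16, 10.56 and 10.32 in KO at ZT12 and 10.59 in KO at ZT16. The KO arrays were alike and all above the WT arrays, while WT rose with time. It rose by 2.66 ± 0.24 log2, 6.33-fold (adjusted p = 0.00215). The fibrinogen gamma chain Fgg read 6.46, 6.12, 6.51 and 6.27 in WT and 8.75, 7.78 and 9.04 in KO, and rose by 2.24 ± 0.23, 4.73-fold (adjusted p = 0.00406). The beta chain Fgb read 5.44, 5.54, 6.20 and 5.85 in WT and 7.07, 6.63 and 7.53 in KO, and rose by 1.42 ± 0.12 (adjusted p = 0.00215). In both chains KO pool 2 at ZT12 was the lowest KO array and still above every WT array. The alpha chain Fga differed by 0.73 ± 0.23 and did not pass (adjusted p = 0.274). Of 10 fibrinogen and tubular injury genes measured, 2 rose and 0 fell, and the injury markers Havcr1 (-0.17 ± 0.08) and Lcn2 (0.08 ± 0.10), picked here after their values were seen, were not called. Fgg lost its call without the KO ZT16 pool (adjusted p = 0.0507), and Fgb kept its call in all 7 fits.

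Several transporters at the cell membrane rose. Slc16a1, the monocarboxylate transporter MCT1 that carries lactate and ketone bodies, read 8.25 and 7.97 in WT at ZT12, 9.17 and 8.99 in WT at ZT16, 9.63 and 9.42 in KO at ZT12 and 10.25 in KO at ZT16. It rose by 1.32 ± 0.11, 2.50-fold (adjusted p = 0.00206), and the KO level at ZT12 was above the WT level at ZT16. It was the 1 gene called among 9 monocarboxylate transporters, of which Slc16a10 differed by 0.27 ± 0.08 and Slc16a7 by 0.20 ± 0.07. Abcb1b, a P-glycoprotein drug efflux pump, read 6.31, 6.16, 6.31 and 6.08 in WT and 7.21, 7.33 and 7.25 in KO, a rise of 1.04 ± 0.09 (adjusted p = 0.00206) that hardly varied within a genotype. Of 20 organic ion and drug transporters, 2 rose and 0 fell, the other being Slc22a29 at 0.58 ± 0.10 (adjusted p = 0.0491), whose call held in 1 of the 7 leave-one-out fits, that without KO ZT12 pool 2. Avpr1a, the V1a vasopressin receptor, read 7.52, 7.24, 8.04 and 8.20 in WT and 8.80, 8.58 and 9.15 in KO, and rose by 1.20 ± 0.11 (adjusted p = 0.00215). It was the 1 gene called among 14 water and urea genes. The V2 receptor Avpr2 differed by 0.32 ± 0.15 and the urea transporter Slc14a2 by 0.20 ± 0.07, neither called.

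Genes of the 2 amino acid lists were called in 1 direction. Of 17 amino acid catabolism genes measured, 4 rose, 0 fell and 13 were not called, with a median of 0.29 log2. Hao2, a peroxisomal hydroxyacid oxidase that was placed in this list, read 10.33, 10.04, 10.39 and 10.17 in WT and 11.68, 11.23 and 11.38 in KO. It rose by 1.20 ± 0.13 (adjusted p = 0.00423). Arg2, the mitochondrial arginase, rose by 0.92 ± 0.10 (adjusted p = 0.00453) from 5.92, 5.88, 6.08 and 6.06 to 7.09, 6.77 and 6.82. Kynu, the kynureninase of tryptophan breakdown, rose by 0.76 ± 0.08 (adjusted p = 0.00431), and Ddc is the fourth member. Of 14 amino acid transporters, 3 rose and 0 fell, Slc7a12, Slc7a8 (0.50 ± 0.09, adjusted p = 0.0488) and Slc38a3 (0.46 ± 0.07, adjusted p = 0.0353), with a median of 0.12. SLC7A8 carries neutral amino acids at the basolateral side and SLC38A3 carries glutamine. Without KO ZT12 pool 2 the catabolism count stayed at 4, and the transporter count dropped to 1, Slc7a12. Kynu lost its call without the KO ZT16 pool (adjusted p = 0.0759), Slc7a8 kept it without WT ZT12 pool 1 alone, and Slc38a3 in none of the 7 leave-one-out fits.

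Among cytochrome P450 genes of arachidonic acid metabolism, 2 rose and 0 fell. Cyp2c23, an epoxygenase, was even in WT at 9.01, 9.05, 9.08 and 9.04 and read 9.82, 9.99 and 10.03 in KO, a rise of 0.91 ± 0.08 (adjusted p = 0.00206). Cyp4a14, of the omega-hydroxylase family, read 8.63 and 8.20 in WT at ZT12, 10.53 and 9.29 in WT at ZT16, 10.44 and 10.43 in KO at ZT12 and 11.19 in KO at ZT16. It rose by 1.73 ± 0.27 (adjusted p = 0.0306), the WT and KO ranges overlapped, and 4 of the 7 leave-one-out fits lost the call, that without KO ZT12 pool 2 among them (adjusted p = 0.128). Its paralog Cyp4a12b differed by -1.12 ± 0.28 (adjusted p = 0.150), and by -1.50 without KO ZT12 pool 2 (adjusted p = 0.0115). These are 13 genes of 20-HETE and epoxide metabolism, of which 11 were not called, with a median of -0.04. Probes of Cyp4a, Ugt2b and Nat8 genes may read more than 1 paralog.

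**Figure D3:**
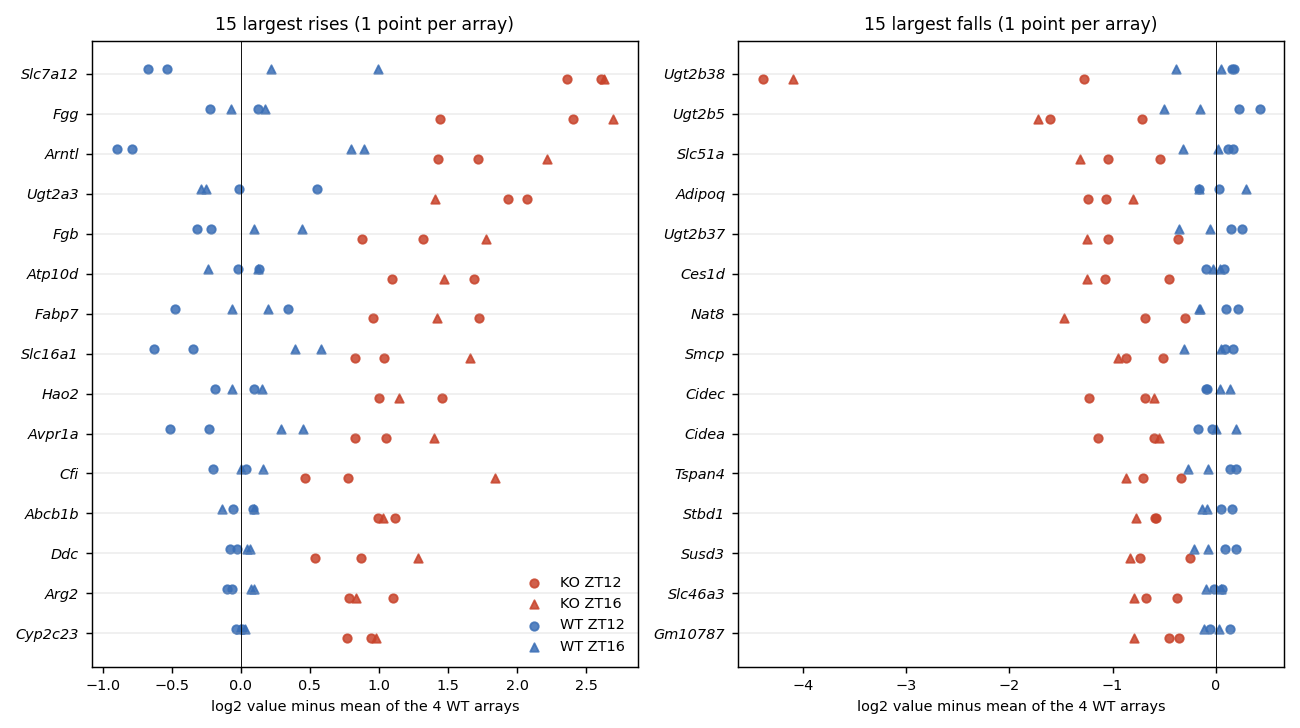
Log2 value of each array minus the mean of the 4 WT arrays, for the 15 largest rises (left) and the 15 largest falls (right) among called genes without overlap, with WT in blue, KO in red, circles for ZT12 and triangles for ZT16. Slc7a12, Fgg and Arntl lead the rises. Ugt2b38 leads the falls, and its KO pool 2 array at ZT12 (10.90) lies between the WT arrays and the other KO arrays (7.79 and 8.08).

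The falls were led by drug-metabolizing enzymes. Of 21 phase I and II enzymes measured, 5 fell, 1 rose and 15 were not called, with a median of -0.34 log2. Ugt2b38, a UDP-glucuronosyltransferase that conjugates steroids and drugs, read 12.36, 12.33, 11.79 and 12.23 in WT and 7.79, 10.90 and 8.08 in KO. It fell by 3.37 ± 0.59, 10.4-fold (adjusted p = 0.0481). Without KO ZT12 pool 2 it fell by 4.24 (adjusted p = 0.000256). Ugt2b5 read 9.60, 9.40, 8.68 and 9.02 in WT and 7.57, 8.46 and 7.45 in KO, and fell by 1.45 ± 0.19 (adjusted p = 0.0115). Ugt2b37 fell by 0.96 ± 0.15 (adjusted p = 0.0306). The carboxylesterase Ces1d fell by 0.95 ± 0.16 (adjusted p = 0.0382) from 11.52, 11.34, 11.42 and 11.48 to 10.37, 10.99 and 10.20. The acetyltransferase Nat8 fell by 0.91 ± 0.15 (adjusted p = 0.0319). Nat8f5 differed by -2.55 ± 0.48 and did not pass (adjusted p = 0.0635), with KO values of 7.96, 9.19 and 5.72 against 9.48 to 10.26 in WT, and it passed without KO ZT12 pool 2 (-3.11, adjusted p = 0.0214). Slc51a, a subunit of the basolateral organic solute transporter, fell by 1.03 ± 0.14 (adjusted p = 0.0118) with no overlap. Ugt2b5 lost its call without the KO ZT16 pool (adjusted p = 0.115), and Slc51a without that pool or KO ZT12 pool 1. Ces1d and Nat8 lost theirs without either of these or either WT ZT16 pool, and Ugt2b38 and Ugt2b37 without WT ZT12 pool 2 as well.

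Genes of the Ugt2 cluster moved in opposite directions and lie near Clock. Ugt2a3 rose by 1.71 ± 0.13, 3.27-fold (adjusted p = 0.00206), from 6.72, 6.15, 5.88 and 5.91 to 8.24, 8.10 and 7.57, and Ugt2b34 rose by 0.85 ± 0.10 (adjusted p = 0.00634). In the RefSeq gene order of GRCm38.p6, Ugt2b34, Ugt2b5, Ugt2b37, Ugt2a3 and Ugt2b38 were the 18th, 19th, 20th, 21st and 22nd measured neighbours of Clock. Atp10d and Cox18 were the 27th and 33rd. Each rank counts the measured genes on the gene's own side of Clock only. Atp10d, a lipid flippase, rose by 1.41 ± 0.15 (adjusted p = 0.00423). Cox18, which helps assemble cytochrome c oxidase, rose by 0.44 ± 0.07 (adjusted p = 0.0358). Of the 100 measured genes nearest to Clock, 50 on each side, 7 were called (7%, 4 higher and 3 lower), against 78 of the 13867 others (0.562%). Their median size of difference was 0.10 log2, against 0.08 in the others. Outside the Ugt2 cluster, Atp10d and Cox18 alone were called among them. Probes of Ugt2b genes may read more than 1 paralog, so the calls within the cluster may not be separate. Atp10d lost its call without the KO ZT16 pool (adjusted p = 0.0652), Ugt2b34 without that pool or KO ZT12 pool 1, and Cox18 without any 1 of the 7 arrays. Chromosome sequence that travels with the deleted Clock allele goes with the KO group, so for these genes it cannot be told apart from the loss of Clock.

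Genes known to differ between male and female mouse kidney were set side by side. Of 10 genes known as male-high, 0 were called, or 1, Cyp4a12b, without KO ZT12 pool 2. All 10 had a negative difference, with a median of -0.44 log2, against 6926 negative of 13967 genes and a median of 0.00 over all genes. The median of these 10 was -0.41 in the day and -1.28 at dawn, so the shift was not particular to early night. Slco1a1, an organic anion transporter, read 11.05 and 11.13 in WT at ZT12, 9.36 and 10.25 in WT at ZT16, 9.40 and 10.47 in KO at ZT12 and 8.96 in KO at ZT16 (-1.03 ± 0.26, adjusted p = 0.158). Both measured female-high genes, Slc7a12 and Cyp4a14, are among the rises above. None of the 3 Y-linked genes measured was called. Eif2s3y read 9.38, 8.94, 8.22 and 9.05 in WT and 9.10, 9.04 and 8.85 in KO (0.03 ± 0.19, adjusted p = 0.973). Uty differed by 0.11 ± 0.16 and Kdm5d by 0.17 ± 0.13. The lowest values of Uty (7.85), Kdm5d (6.68) and Eif2s3y (8.22) were all in WT ZT16 pool 1. The labels give no sex, and the part of sex in these results was not tested.

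Among markers of fat cells, 2 fell. Adipoq, the fat hormone adiponectin, read 5.94, 5.74, 5.74 and 6.20 in WT and 4.67, 4.85 and 5.11 in KO, and fell by 0.99 ± 0.12 (adjusted p = 0.00925). Cidec and Cidea, which coat lipid droplets, fell by 0.80 ± 0.12 (adjusted p = 0.0306) and 0.72 ± 0.13 (adjusted p = 0.0491), each with no overlap. Of 5 adipocyte markers measured, 2 fell, 0 rose and all 5 had a negative difference, with Retn at -0.29 ± 0.08, Plin1 at -0.28 ± 0.11 and Fabp4, named after its value was seen, at -0.22 ± 0.16. The mean level of the 5 lay between 6.52 and 6.83 in the WT arrays and between 6.03 and 6.26 in the KO arrays. Adipoq lost its call without KO ZT12 pool 1 (adjusted p = 0.0842) or the KO ZT16 pool (adjusted p = 0.0652), Cidec held in 3 of the 7 leave-one-out fits and Cidea in 1, that without KO ZT12 pool 2. In the day window the differences had the opposite sign, 1.18 for Adipoq, 0.90 for Cidea and 0.40 for Cidec, none called, and the median of the 5 markers was 0.44 against -0.29 in early night. The part of fat tissue in the falls of these genes was not tested. In tissue RNA fewer cells of a type and less RNA per cell cannot be told apart.

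Markers of kidney cells were present, and 0 of them were called, where 0.609% of all genes were. At that share lists of this size hold few or no calls, so the 0 is no sign of equal cell numbers. The mean level of the 12 proximal tubule markers lay between 12.1 and 12.2 log2 in the WT arrays, and 0 of the 12 were called, with a median difference of -0.02. None was called among 5 podocyte, 6 thick ascending limb, 6 distal convoluted tubule, 9 principal cell, 10 intercalated cell, 9 endothelial, 10 stromal, 13 immune and 7 proliferation markers. Against 5.3% of all genes higher and 2.91% lower without overlap, 4 of 6 distal convoluted tubule markers and 4 of 9 endothelial markers were higher without overlap. Of 7 proliferation markers 3 were lower without overlap. The medians of these lists were 0.20, 0.11 and -0.17. The proliferation markers were dim, with a mean level of 5.58 to 5.76 in the WT arrays and 5.49 to 5.54 in the KO arrays. Those levels lie under the array medians of 5.91 to 6.01 over all probe sets. Among the distal convoluted tubule markers were the magnesium channel Trpm6 at 0.49 ± 0.11 (adjusted p = 0.123) and the calcium-binding Pvalb at 0.34 ± 0.12. Of 4 skeletal muscle, 5 urothelial and 1 adrenal marker, 0 were called. The 1 red blood cell marker measured, Alas2, differed by -0.66 ± 0.18 (adjusted p = 0.187).

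Genes for the transport of salt and other ions, the main work of the tubule, were counted next. Over all genes 0.609% were called, and at that share lists of this size hold few or no calls. The counts below therefore do not set these lists apart from other genes. Of 11 sodium transport genes 0 were called, with a median of 0.04, and the thiazide-sensitive cotransporter Slc12a3 differed by 0.19 ± 0.08. Of 12 regulators of distal sodium transport 0 were called, or 1, Usp2, which fell, without KO ZT12 pool 2. Of 16 genes of calcium, magnesium, potassium and phosphate handling 0 were called, with a median of 0.13. Of 6 renin-angiotensin genes 0 were called, with a median of 0.14. Of 15 acid-base and ammonia genes 1 rose, Slc38a3. None was called among 12 genes of glucose handling, 12 of cholesterol synthesis, 14 chaperones of the endoplasmic reticulum, 11 heat shock genes, 2 cold-inducible RNA-binding genes and 6 interferon response genes.

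Metabolic and stress responses gave single calls. Among 17 genes of fatty acid oxidation and PPAR targets, Cyp4a14 rose and 16 were not called, with Angptl4, a lipoprotein lipase inhibitor, at -0.73 ± 0.15 (adjusted p = 0.0921) and the fatty acid uptake receptor Cd36 at -0.53 ± 0.11 (adjusted p = 0.0862). The nuclear receptor Ppard differed by 0.48 ± 0.10 (adjusted p = 0.0986). All 10 immediate early genes had a positive difference, with a median of 0.22, against 7041 positive of 13967 genes. Of these Fosb rose by 0.91 ± 0.16 (adjusted p = 0.0481), reading 5.84, 6.44, 6.32 and 6.26 in WT and 6.69, 7.07 and 7.45 in KO, and Fos differed by 0.81 ± 0.18 (adjusted p = 0.114). Without KO ZT12 pool 2 Fosb was not called (adjusted p = 0.166), and its call held only without WT ZT12 pool 2. Of 13 glucocorticoid-responsive genes 0 were called, with a median of -0.17. Fkbp5 gave -0.60 ± 0.11 (adjusted p = 0.0635) and Zbtb16 -0.86 ± 0.25 (adjusted p = 0.233), and both passed without KO ZT12 pool 2 (adjusted p = 0.0224 and 0.00399).

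**Figure D4:**
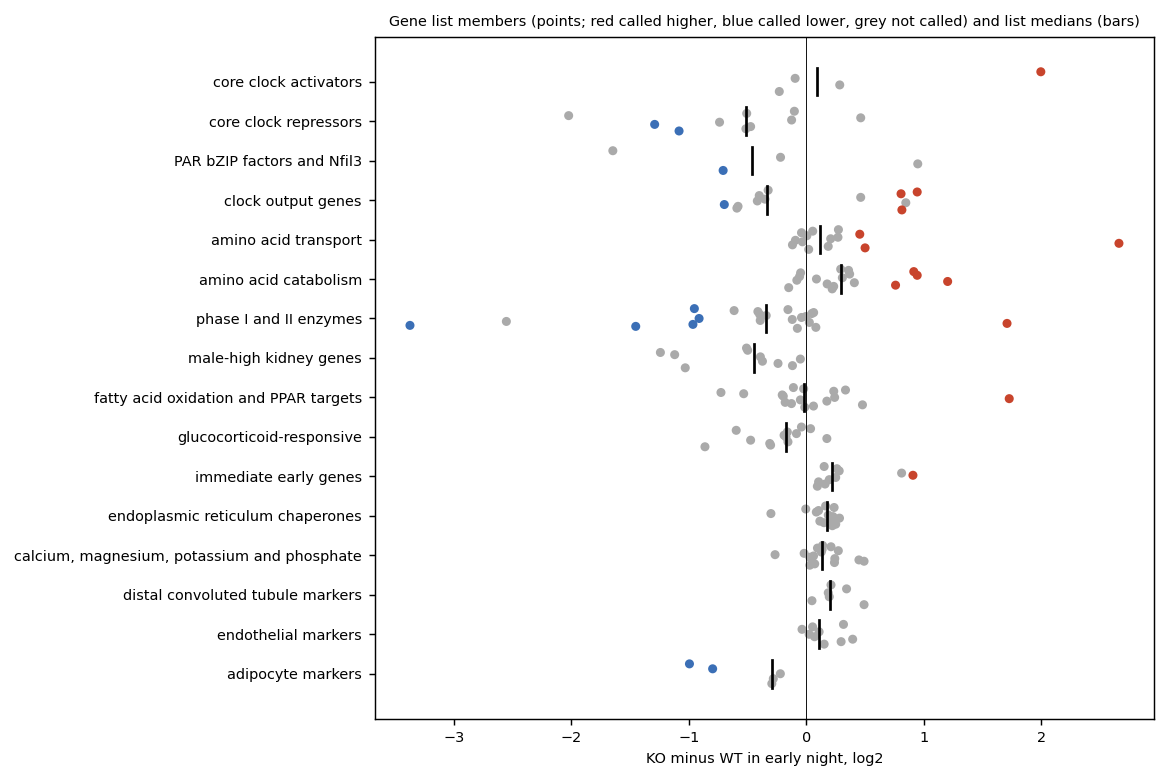
KO minus WT difference in log2 in early night (x axis) for the measured members of 16 gene lists, with red points called higher, blue points called lower, grey points not called and black bars at list medians. Arntl, Slc7a12 and Ugt2a3 stand to the right of their lists, and the medians of the core clock repressors (-0.51), the male-high genes (-0.44) and the phase I and II enzymes (-0.34) lie below 0.

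Among other rises without overlap, Fabp7, a fatty acid-binding protein, gave 1.38 ± 0.22 (adjusted p = 0.0306), and Cfi, complement factor I, gave 1.12 ± 0.20 (adjusted p = 0.0490), with 0.70 at ZT12 and 1.76 at ZT16. Among other falls, Smcp gave -0.82 ± 0.12, Stbd1, which binds glycogen, gave -0.68 ± 0.07, Susd3 gave -0.65 ± 0.11, and Slc46a3 gave -0.64 ± 0.10, with adjusted p from 0.00406 to 0.0481. Stbd1 read 5.65, 5.76, 5.47 and 5.52 in WT and 5.02, 5.01 and 4.82 in KO, so its KO arrays were close together and apart from WT. Gm10787, an unnamed gene model, gave -0.57 ± 0.10 (adjusted p = 0.0409). Without the KO ZT16 pool none of these 7 was called, and without KO ZT12 pool 1 Stbd1 alone was. Gm10787 was not called without KO ZT12 pool 2 either (adjusted p = 0.0791).

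Of the 85 calls, 14 held in all 7 leave-one-out fits. They were Slc7a12, Arntl, Ugt2a3, Fgb, Slc16a1, Hao2, Avpr1a, Abcb1b, Arg2, Cyp2c23, Npnt, Itga6, Pigr and Ceacam2, and all 14 were higher in KO. The last 4 are named because of this count. Npnt encodes nephronectin, Itga6 an integrin subunit, Pigr the receptor that carries immunoglobulin A across epithelia, and Ceacam2 an adhesion molecule. At the other end, 8 calls held in none of the 7 fits, Cds1, Cox18, Ndrg1, Phlda2, Rasgrp1, Rgcc, Slc25a33 and Slc38a3, with sizes from 0.41 to 0.55 log2.

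The genotype difference in early night was then set against that at the other times. The same fit gave 0 calls in the subjective day (ZT4 and ZT8, 4 KO and 3 WT arrays), with 813 genes at an unadjusted p under 0.05 (5.82%), and 108 calls around dawn (ZT20 and ZT0, 4 KO and 4 WT arrays), 0.773% of genes. Of the 85 genes, 81 had the same sign in the day and 79 at dawn, and the share over all genes was not counted. At dawn 26 of the 85 were also called with the same sign. Among these 26 were Slc7a12 (2.66 in early night and 2.85 at dawn), Ugt2b38 (-3.37 and -4.72), Hao2 (1.20 and 1.13), Abcb1b (1.04 and 1.07) and Arg2 (0.92 and 1.41). Abcb1b differed by 1.02 in the day too. These windows hold different arrays and differ in how well they resolve a difference, so a call in one and not in another is no sign of a change with time.

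The test of the change itself, early night against the mean of the other 4 times in a fit of all 22 arrays, called 0 genes in limma, with 549 at an unadjusted p under 0.05 (3.93%). The genes nearest to the threshold were Arntl, with 1.28 ± 0.20 log2 more KO minus WT difference in early night than at the other times (adjusted p = 0.0900), and Ddc, with 0.75 ± 0.11 (adjusted p = 0.0900). Slc16a1 followed with 0.91 ± 0.17, Ppard with 0.70 ± 0.13, Fam163a with 0.65 ± 0.13 and Hyou1 with 0.43 ± 0.08 (adjusted p = 0.284 for each). In the other direction were Adipoq with -1.63 ± 0.38, Alas2 with -0.99 ± 0.23, Macroh2a2 with -0.59 ± 0.14, Snora23 with -0.53 ± 0.12 and Slc25a33 with -0.44 ± 0.10 (adjusted p = 0.390 for each), and Upp2, uridine phosphorylase, with -0.95 ± 0.19 (adjusted p = 0.284). Ddc differed by 0.12 in the day and 0.34 at dawn, Slc16a1 by 0.50 and 0.22, and Upp2, at -0.80 in early night (adjusted p = 0.0714), by 0.00 and 0.34. Upp2 was called in early night without KO ZT12 pool 2 (-0.97, adjusted p = 0.0373). Against the day alone 0 genes were called in limma, with 539 at an unadjusted p under 0.05 (3.86%). Against dawn alone 3 were called (0.0215%), Arntl, Hyou1 and Rhobtb1, all with a larger difference in early night, and 616 genes had an unadjusted p under 0.05 (4.41%).

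**Figure D5:**
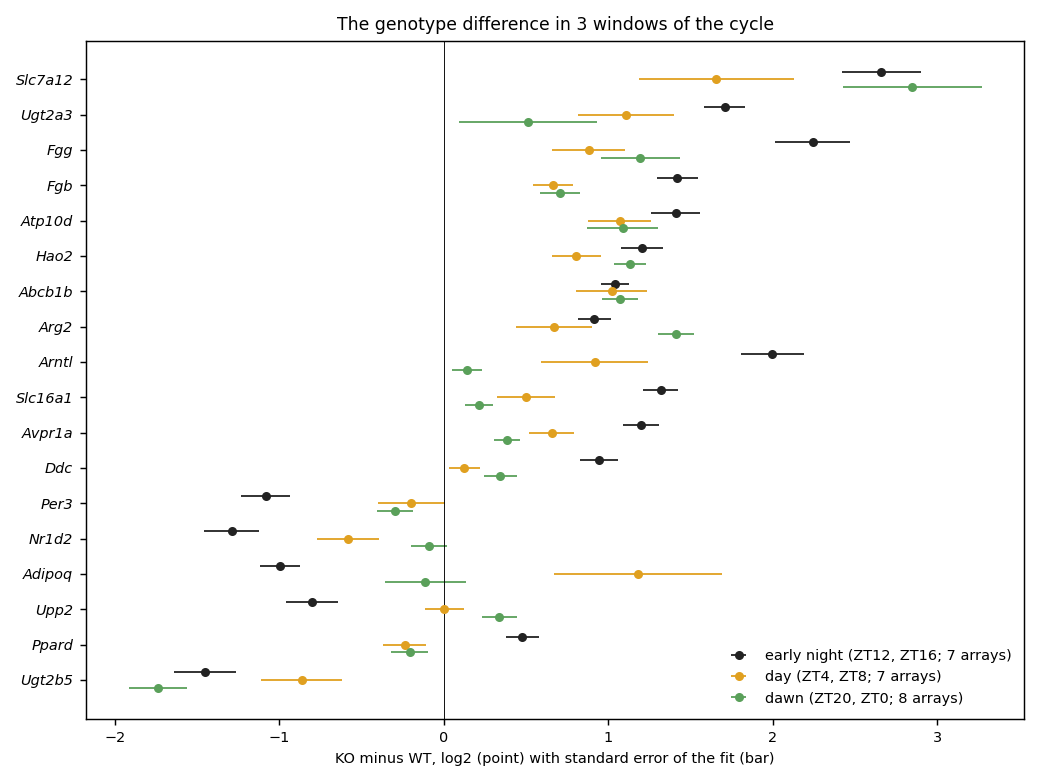
KO minus WT difference in log2 with its standard error for 18 genes (rows) in early night (black), the day (orange) and around dawn (green), each from its own fit. Slc7a12, Hao2 and Abcb1b lie to the right of 0 in all 3 windows. Arntl goes from 2.00 in early night to 0.92 in the day and 0.14 at dawn, and Adipoq is at -0.99 in early night and 1.18 in the day.

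Within early night, ZT16 was set against ZT12 in the same 22-array fit. No gene was called in limma, with 318 at an unadjusted p under 0.05 (2.28%), and the KO group at ZT16 was 1 array. The smallest unadjusted p belonged to Rhobtb1, whose KO minus WT difference went from 1.16 at ZT12 to 0.38 at ZT16 (change -0.77 ± 0.16, unadjusted p = 0.000282, adjusted p = 0.9999). Nat8f5 went from -1.54 to -4.07 and Creld2, a chaperone of the endoplasmic reticulum, from 0.59 to -0.29. In the positive direction were Tceanc, from -0.19 to 0.65, and Tmem86a, from -0.40 to 0.45. Arntl, at 2.42 and 1.37, changed by -1.05 ± 0.33 (unadjusted p = 0.00677).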

How the data were processed

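Values are the authors' deposited log2 expression per probe set from 22 mouse kidney arrays. Per the submitters' processing notes they come from RMA. This method brings all arrays to 1 distribution, so a shift of most genes in 1 direction would be removed, and it compresses dim probe sets. The genome build is not given in the sources used here.

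Of 35556 probe sets, 21789 carry 1 gene symbol in the platform annotation, 1621 several and 12146 none. Through their gene numbers 21698 of the first were found in RefSeq's table for GRCm38.p6, with 0 changes of symbol. Each gene was represented by its probe set of highest mean over all arrays, after those under the 30th percentile of that mean had been dropped, leaving 13967 genes.

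limma 3.58.1 in R 4.3.3 was fitted to the 7 early-night arrays with genotype and time as terms (4 residual degrees of freedom), and to all 22 arrays with 1 mean per genotype and time (10 residual degrees of freedom) for changes between times. In the latter, groups with a lone pool take their variance from the rest. Values after ± are standard errors from the fit, and adjusted p-values are Benjamini-Hochberg over all genes. The scripts were tested on simulated data. Precision is limited by the number of arrays.

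The members of 44 lists, the tests and the named genes were chosen with earlier results of these data known. Named were Clock and the clock genes, the 15 largest called rises and falls without overlap, the 6 genes per direction nearest to a call in each comparison of times, and up to 4 genes per list. Other genes are named where a count or motif led to them. Alternatives were other filters, every probe set, 2 rescalings, the pool number as a block, pool 1 alone, other variance models and leaving out each array. Pool numbers did not pair the arrays: deviations of equal pool numbers correlated at -0.411, 0.004 and 0.257 between the 3 pairs of groups.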

Additional observations from a re-analysis of the deposited data

Results flagged for a closer look

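The genotype difference of 3 genes differed between early night and dawn in the 12-group limma fit of all 22 arrays. Arntl had 1.75 ± 0.22 log2 more KO minus WT difference in early night than at dawn (adjusted p = 0.0170), with 2.00 in early night and 0.14 at dawn. Rhobtb1 had 0.75 ± 0.11 more (adjusted p = 0.0415), with 0.85 and 0.02. Hyou1, a chaperone of the endoplasmic reticulum, had 0.62 ± 0.09 more (adjusted p = 0.0415), with 0.28 in early night (not called) and -0.37 at dawn (adjusted p = 0.0680). No genotype and time group held more than 2 arrays, so single arrays were not tested as outliers.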

How the results depend on the processing

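The count of 85 genes was 56 with no filter on dim probe sets, 139 with a filter at the 50th percentile, 129 in the 12-group fit, 188 with a trended and robust prior, 544 with array weights, 15 with no time term and 3 at ZT12 alone. It lay between 17 and 104 when 1 array was left out. The fit of array weights gave a warning that it had not converged. With array medians subtracted, the median of all genes moved from 0.00 to 0.04 log2, and 124 genes were called. With pool 1 alone, 77 were called, 41 higher and 36 lower, so the share of higher genes was 53.2% against 69.4%; it was 53.3% without KO ZT12 pool 2. With the pool number as a replicate block, 47 genes were called, 45 of them among the 85, and 0 for either change with time. Early night against the other times gave 1 gene with the filter at the 50th percentile, 1 with the trended prior, 3 against ZT20 and ZT0 alone, and 0 to 3 when 1 array was left out. ZT16 against ZT12 gave 0 under every alternative run, and could not be fitted without the lone KO ZT16 pool. The difference of Bhlhe40, -0.10, was 0.013 at ZT12 alone and lay between -0.24 and 0.013 when 1 array was left out. Over single genes and alternatives, 1700 values counted as unchanged, 230 lost a call and 96 gained one. A further 63, all of them differences within pool 2, moved away from the main value, and 2 values were counted as reversed. Within pool 2 only genes called in the main fit could count as reversed. Sign changes of other genes there are therefore not among the 2. Differences within pool 2 are among the values counted, and they had no test and so no side of the threshold. When every probe set of the table was tested together, an alternative chosen after seeing the data, 0 were called.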
